A study of Mus musculus with 8 samples.

Results

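Collagens, laminins and integrins were followed in tumour cells and host cells of mouse small cell lung cancer allografts. The genes were chosen by symbol: every listed gene named Col, a number, a and a number, every gene named Lama, Lamb or Lamc with a digit, and every gene named Itga or Itgb with a digit or one of the leukocyte and vitronectin receptor letters. The choice took 84 of the 22056 genes in the tables, of which 43 were collagen chains, 11 laminin chains and 27 integrin subunits. The other 3, Itgb1bp1, Itgb1bp2 and Itgb3bp, encode proteins named for binding to integrin tails and are counted apart because they are not subunits.

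Droplet-based 3' RNA libraries of single cells were made from tumours grown from N2N1G cells, a murine line derived from small cell lung cancer. This cancer is a neuroendocrine tumour. In every group the same number of cultured cells had been transplanted, and the tumours were taken after 3 weeks. The brain group (2 libraries) and the subcutaneous group (3 libraries) were started by direct injection, and the liver group (3 libraries) through the tail vein, so site and route cannot be told apart in comparisons with liver. The labels give 1 cell line and neither the strain nor the genotype, age or sex of the host mice, and healthy single cells had been sorted from the dissociated tumours, which can set the share of each cell type.

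Collagens are triple helices of 3 chains. Fibrillar collagens such as the products of Col1a1, Col1a2 and Col3a1 form the fibres of connective tissue, whereas collagen IV and the laminins, each a trimer of an alpha, a beta and a gamma chain, form the sheets of basement membranes. Integrins are receptors of 1 alpha and 1 beta subunit that bind these proteins, and leukocytes carry a family of their own built on Itgb2. In brain, basement membrane lies around blood vessels and under the pial surface, while fibrillar collagen is scarce in the tissue itself.

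Promoter windows are shown for Col8a1 and Lama5, the collagen and the laminin above 5 CPM that were called in both brain comparisons, and for the pair Col4a1 and Col4a2, of which Col4a2 was called between brain and liver. The sequences are RefSeq's (GRCm38.p6) and run 5′ to 3′ on the strand of the gene, from 250 bases before to 50 bases after the annotated start. For the collagen IV pair, capitals mark the 78 bases that both windows share, because the genes lie head to head on opposite strands with annotated starts 21 bases apart. For Col8a1 and Lama5, capitals mark the GC box letters GGGCGG or their complement CCGCCC, searched on both strands. The windows are chr8:11312777-11313076 (minus strand) for Col4a1, chr8:11312555-11312854 (plus) for Col4a2, chr16:57754688-57754987 (minus) for Col8a1 and chr2:180225810-180226109 (minus) for Lama5.
Col4a1: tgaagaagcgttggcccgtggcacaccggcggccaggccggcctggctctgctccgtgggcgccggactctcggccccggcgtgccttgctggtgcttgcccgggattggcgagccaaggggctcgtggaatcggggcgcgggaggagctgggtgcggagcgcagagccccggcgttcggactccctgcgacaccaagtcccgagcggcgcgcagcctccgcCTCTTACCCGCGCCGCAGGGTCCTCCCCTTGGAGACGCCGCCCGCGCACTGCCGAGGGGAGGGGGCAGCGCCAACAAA
Col4a2: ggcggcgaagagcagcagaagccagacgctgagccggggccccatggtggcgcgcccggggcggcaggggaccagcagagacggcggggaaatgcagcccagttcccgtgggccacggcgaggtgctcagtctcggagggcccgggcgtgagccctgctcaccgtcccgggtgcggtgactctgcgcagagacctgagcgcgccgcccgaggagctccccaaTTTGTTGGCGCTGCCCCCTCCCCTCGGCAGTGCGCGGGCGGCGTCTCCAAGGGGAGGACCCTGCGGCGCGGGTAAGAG
Col8a1: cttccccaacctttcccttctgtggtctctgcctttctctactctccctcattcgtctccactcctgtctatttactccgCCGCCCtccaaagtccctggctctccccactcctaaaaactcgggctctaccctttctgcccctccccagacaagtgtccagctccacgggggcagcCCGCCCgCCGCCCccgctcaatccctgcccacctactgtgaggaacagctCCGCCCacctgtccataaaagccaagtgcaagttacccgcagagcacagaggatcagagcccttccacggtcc
Lama5: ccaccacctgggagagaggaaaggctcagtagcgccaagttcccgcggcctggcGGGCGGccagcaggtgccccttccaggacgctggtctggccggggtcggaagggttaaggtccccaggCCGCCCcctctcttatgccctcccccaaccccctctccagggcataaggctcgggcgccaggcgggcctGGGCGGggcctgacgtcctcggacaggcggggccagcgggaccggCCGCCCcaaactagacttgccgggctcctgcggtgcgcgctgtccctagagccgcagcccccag
The Col8a1 and the Lama5 window each held 4 GC boxes. Such letters were also present in 35.7% of the 32851 promoter windows of this length in the table, and in 32 of the 60 genes of the set that had an entry, so their presence describes the windows and nothing else.

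The tables held 38460 cells, of which 36797 passed the filters on cells. Tumour-named cells numbered 34307, with 2258 to 6308 per library and summed counts of 19940648 to 62114487 unique molecular identifiers (UMIs), and 99.5% to 99.9% of them per library had a UMI of the eGFP reporter. Host classes with at least 50 cells were microglia (365 cells), macrophages (343), monocytes or dendritic cells (235), endothelial cells (91) and fibroblasts (93, of which 78 were 1 cluster from subcutaneous library 1). Another 1177 cells stayed unnamed, and pairs of libraries shared 16 to 51 cell barcodes. Brain library 1 stood apart: 43.0% of its tumour-named cells carried at least 2 UMIs of host cell markers, against 10.8% in brain library 2, 6.10% in subcutaneous library 1 and 0.906% to 1.47% in the other libraries. Nothing in the labels says that libraries of a group came from separate animals, so p-values measure the spread between these libraries.

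Tumour cells used few of the 84 genes at appreciable levels. Levels are CPM, the UMIs of a gene scaled to a common total of the UMIs of tumour cells. Because the libraries count the 3' ends of transcripts, no length correction was made. Whether different genes were captured and counted equally was not tested, so levels of different genes are not read as ratios of molecules. With the 3 site means averaged, 6 genes were at 10 CPM or more, 8 between 1 and 10 CPM and 70 below 1 CPM. The genes at 10 CPM or more were Itgb1, Col9a3, Itgb3bp, Itgb1bp1, Col8a1 and Itga6. Col4a5, Col4a6, Col6a4 and Col6a5 had no UMI in tumour cells. Among 13672 genes tested by edgeR's quasi-likelihood test, 41 of the 84 passed the filter on low counts.

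Levels of a minority of these genes differed between sites, and every call in the fit of all 8 libraries was in a comparison with brain. Between brain and liver, 12 of the 41 tested genes passed an adjusted p of 0.05 (Benjamini-Hochberg over all genes), 7 higher and 5 lower in brain, where 22% of all tested genes were called, 14% higher and 8.08% lower. Between brain and subcutaneous tissue 7 of 41 passed, 5 higher and 2 lower in brain, against a background of 15.9% (9.73% higher and 6.14% lower). Between liver and subcutaneous tissue none of the 41 was called by edgeR, where 3.61% of all genes were (1.19% higher and 2.42% lower in liver). DESeq2 called 0 as well. An unadjusted p under 0.05 by edgeR was seen for 10 of the 41, with no share over all tested genes to set beside it, so nothing is read from that count. The median log2 fold change of the 41 was -0.00 for brain minus liver and -0.07 for brain minus subcutaneous, beside 0.02 and 0.01 over all tested genes. The brain comparisons share the same 2 brain libraries, so their values are not independent of each other.

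Leaving out 1 library moved these counts. Without brain library 2 the brain against liver count was 7, where 9.57% of all tested genes were called in the same fit. The brain against subcutaneous count was 1 without brain library 1 (3.92% of all genes) and 3 without brain library 2 (4.97%). It was 12 without subcutaneous library 1 (34.1%), 4 without subcutaneous library 2 (6.66%) and 3 without subcutaneous library 3 (6.3%). The liver against subcutaneous count was 2 without subcutaneous library 1 (9.57%). The share of all genes called moved in the same direction in each of these fits.

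**Figure D1:**
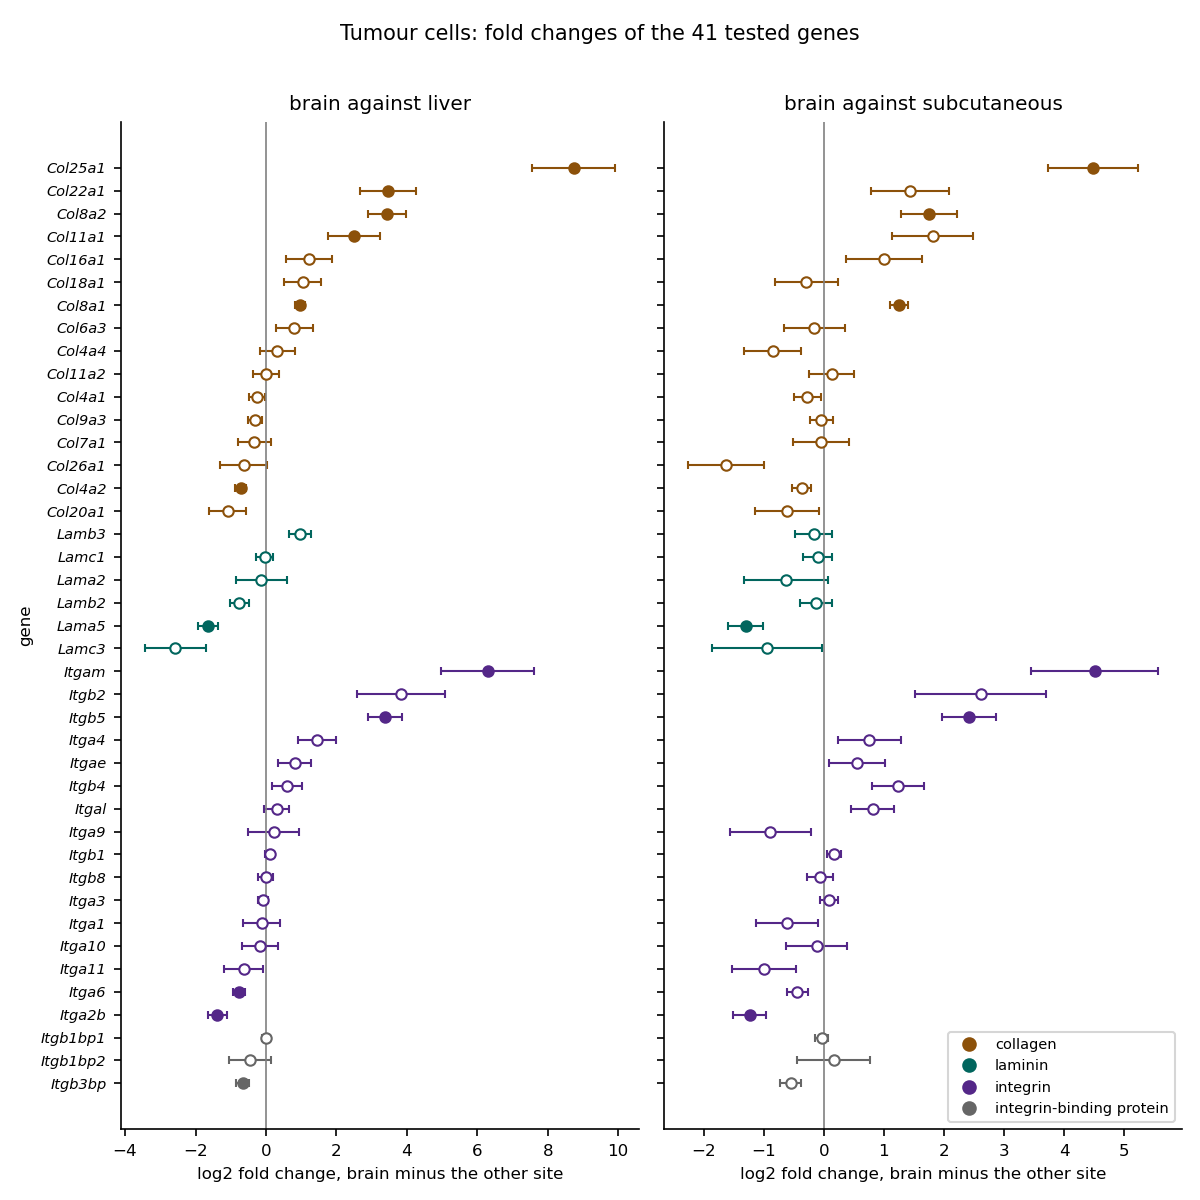
Log2 fold changes (x axis, brain minus liver on the left and brain minus subcutaneous on the right, each panel with its own scale) of the 41 tested genes (y axis, grouped by family); bars are 1 SE from edgeR, filled points passed an adjusted p of 0.05 and open points did not. Collagens called higher in brain lie at the top, Lama5 lies to the left of 0 in both panels, and Itgb1 lies near 0 in both.

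Col8a1 encodes a short-chain collagen of the basement membranes of vessels and of the cornea, and it was the collagen with the lowest adjusted p in both brain comparisons. It lies on chromosome 16, 57624258 to 57754737 (GRCm38, minus strand). Its level was 42.9 and 50.2 CPM in the brain libraries, 21.8, 22.5 and 23.05 CPM in liver, and 24.0, 17.8 and 17.7 CPM in subcutaneous tumours. Both brain libraries lay above all 6 others. The log2 fold change was 0.96 ± 0.14 (SE) for brain minus liver (edgeR, adjusted p = 0.002) and 1.25 ± 0.14 for brain minus subcutaneous (adjusted p = 0.001). Its partner chain Col8a2 was far lower, with 0.90 and 0.63 CPM in brain, 0.06, 0.06 and 0.07 CPM in liver and 0.36, 0.19 and 0.14 CPM in subcutaneous tumours. Col8a2 is below the level set for naming and is named because it pairs with Col8a1. It was called higher in brain than in liver (log2 fold change 3.42 ± 0.54, adjusted p = 0.003) and than in subcutaneous tumours (1.75 ± 0.46, adjusted p = 0.034). Leaving out either brain library, any liver library, or subcutaneous library 2 or 3 ended the second call, with adjusted p between 0.055 and 0.184. So did DESeq2 (0.087), a fit of the 2 sites alone (0.096) and leaving out cells with host marker UMIs (0.065).

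The other collagens called higher in brain were low everywhere and were chosen for mention after their values were seen: Col25a1, a transmembrane collagen of neurons, Col22a1, a collagen of tissue junctions, and Col11a1, a minor fibrillar chain. Col25a1 had 1.153 and 1.294 CPM in brain, no UMI in any liver library, and 0.12, 0.05 and 0 CPM in subcutaneous tumours. Against a floor of 3 counts over the liver group, its mean level in brain was at least 57.8-fold higher (adjusted p = 0.003 by edgeR). The log2 fold change of brain minus subcutaneous was 4.48 ± 0.75 (adjusted p = 0.009), and the adjusted p rose to 0.059 without brain library 1 and 0.074 without brain library 2. Col22a1 (0.45 and 0.29 CPM in brain, 0.04, 0.04 and 0 CPM in liver) and Col11a1 (0.30 and 0.32 CPM in brain, 0.04, 0.04 and 0.07 CPM in liver) were called against liver, while their adjusted p against subcutaneous tumours was 0.164 and 0.100, and leaving out either brain library ended both calls. For Col11a1 leaving out any liver library ended the call too, with adjusted p from 0.069 to 0.113.

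The collagen IV chains of basement membranes did not follow Col8a1. Col4a2 lies on chromosome 8, 11312805 to 11449287 (plus strand), beside Col4a1, 11198423 to 11312826 (minus strand). Col4a2 had 7.17 and 6.44 CPM in brain, 11.97, 10.47 and 8.90 CPM in liver and 8.59, 8.52 and 9.43 CPM in subcutaneous tumours. Its brain libraries lay below the others, and it fell in brain against liver by 0.72 ± 0.16 on the log2 scale (edgeR, adjusted p = 0.011), with an adjusted p of 0.093 without brain library 2. Against subcutaneous tumours the log2 fold change was -0.37 ± 0.16 (adjusted p = 0.138). Col4a1, its partner in the common collagen IV trimer, had 5.97 and 5.52 CPM in brain, 6.76, 7.44 and 5.09 CPM in liver and 8.81, 5.65 and 6.69 CPM in subcutaneous tumours. Its groups overlapped, and neither brain comparison passed (log2 fold changes of -0.26 and -0.28, adjusted p = 0.439 and 0.438 by edgeR). Whether the fold changes of Col4a1 and Col4a2 between sites differed from each other was not tested.

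Col9a3, a chain of the fibril-associated collagen IX, was the collagen with the highest level in tumour cells. It had 71.8 and 53.3 CPM in brain, 66.2, 65.5 and 85.8 CPM in liver and 51.25, 72.7 and 70.9 CPM in subcutaneous tumours. The ranges overlapped, and the 95% intervals of its log2 fold change ran from -0.69 to 0.07 against liver and from -0.42 to 0.33 against subcutaneous tumours. Col9a1, another chain of the same collagen, reached at most 0.15 CPM in any library. Col18a1, a basement membrane collagen that is the source of endostatin, had 8.88 and 9.06 CPM in brain, 3.76, 3.73 and 4.72 CPM in liver and 21.9, 5.68 and 6.03 CPM in subcutaneous tumours. The value of subcutaneous library 1 lay above the other 7, and no comparison of Col18a1 passed (edgeR, lowest adjusted p = 0.162, liver against subcutaneous).

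Lama5, the alpha chain of the laminins typical of epithelial and vascular basement membranes, was the laminin with the highest level in tumour cells and was lower in brain. It lies on chromosome 2, 180176373 to 180225859 (minus strand). Its level was 4.86 and 3.38 CPM in brain, 14.97, 10.51 and 10.41 CPM in liver and 6.99, 11.0 and 12.2 CPM in subcutaneous tumours. Both brain libraries lay below the 6 others. It fell by 1.65 ± 0.29 on the log2 scale in brain against liver (edgeR, adjusted p = 0.004) and by 1.30 ± 0.29 against subcutaneous tumours (adjusted p = 0.017). The first call was lost without brain library 2 (adjusted p = 0.059). The second was lost without brain library 1 (0.060), brain library 2 (0.148) or subcutaneous library 3 (0.050), and with the 2 sites fitted alone (0.053).

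The beta and gamma chains that pair with Lama5 were not called. Lamc1, the common gamma chain, had 5.47 and 3.49 CPM in brain, 4.80, 4.52 and 3.37 CPM in liver and 5.23, 4.31 and 4.89 CPM in subcutaneous tumours, with overlapping ranges. Lamb2 had 2.46 and 1.56 CPM in brain, 3.72, 2.50 and 3.15 CPM in liver and 1.9598, 2.27 and 2.30 CPM in subcutaneous tumours, and its brain minus liver log2 fold change of -0.76 ± 0.26 had an adjusted p of 0.068 (edgeR). Lamb1 was at most 0.29 CPM. Lamb3, a chain of epithelial anchoring laminin, had 0.47, 0.36 and 0.42 CPM in liver and 0.85, 1.03 and 1.08 CPM in subcutaneous tumours without overlap, and the adjusted p of that difference was 0.054. Of the 6 laminins tested, 1 (16.7%) was called in each brain comparison, beside 22% and 15.9% of all tested genes. Nothing about laminins as a family is read from that count.

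Itgb1, the beta subunit shared by most receptors for collagen and laminin, had the highest level of the 84 genes in tumour cells and did not pass in any comparison. It had 100.2 and 89.7 CPM in brain, 74.6, 79.05 and 94.8 CPM in liver and 79.3, 89.4 and 86.55 CPM in subcutaneous tumours. Its 95% intervals of the log2 fold change were -0.14 to 0.34 against liver and -0.07 to 0.41 against subcutaneous tumours. Itga6, which forms a laminin receptor with Itgb1, had 15.75 and 11.30 CPM in brain, 23.4, 19.9 and 21.3 CPM in liver and 15.75, 19.1 and 20.3 CPM in subcutaneous tumours. It fell in brain against liver by 0.77 ± 0.17 on the log2 scale (edgeR, adjusted p = 0.012), and the call was lost without brain library 2 (adjusted p = 0.107). The log2 fold change of brain minus subcutaneous was -0.44 ± 0.17 (adjusted p = 0.109).

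Itga3, another laminin-binding partner of Itgb1, had 7.37 and 6.36 CPM in brain, 6.96, 7.33 and 6.01 CPM in liver and 6.73, 6.42 and 6.38 CPM in subcutaneous tumours, with overlapping ranges. Itgb8 had 1.95 to 2.90 CPM over the 8 libraries, while Itgav, the alpha subunit it is known to pair with, reached at most 0.15 CPM in tumour cells. Neither Itga3 nor Itgb8 passed in any comparison. Itga2b, the alpha subunit of the platelet fibrinogen receptor, is named after its values were seen: 0.55 and 0.48 CPM in brain against 1.11 to 1.28 CPM in the 6 other libraries. It was called lower in brain against liver (log2 fold change -1.38 ± 0.28, adjusted p = 0.008 by edgeR) and against subcutaneous tumours (-1.24 ± 0.27, adjusted p = 0.017). The first call was lost without brain library 2 (0.065), and the second without either brain library or without subcutaneous library 2 or 3 (0.062 to 0.113). Thinning to 3000 UMIs per cell ended both (0.077 and 0.145), and the second was also lost with the 2 sites fitted alone (0.068) and without the clusters mostly of brain cells (0.057).

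Of the integrin-binding proteins, Itgb3bp, also known as a centromere protein, had 38.3 and 53.8 CPM in brain, 68.2, 73.4 and 63.1 CPM in liver and 83.4, 61.7 and 61.0 CPM in subcutaneous tumours. It fell in brain against liver by 0.66 ± 0.18 on the log2 scale (edgeR, adjusted p = 0.028). The adjusted p was 0.205 without brain library 1, 0.063 without liver library 1 and 0.082 without liver library 2. The call was also lost without the clusters mostly of brain cells (0.173) and in those clusters alone (0.134). Itgb1bp1 had 25.7 to 31.8 CPM over the 8 libraries and passed in no comparison.

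**Figure D2:**
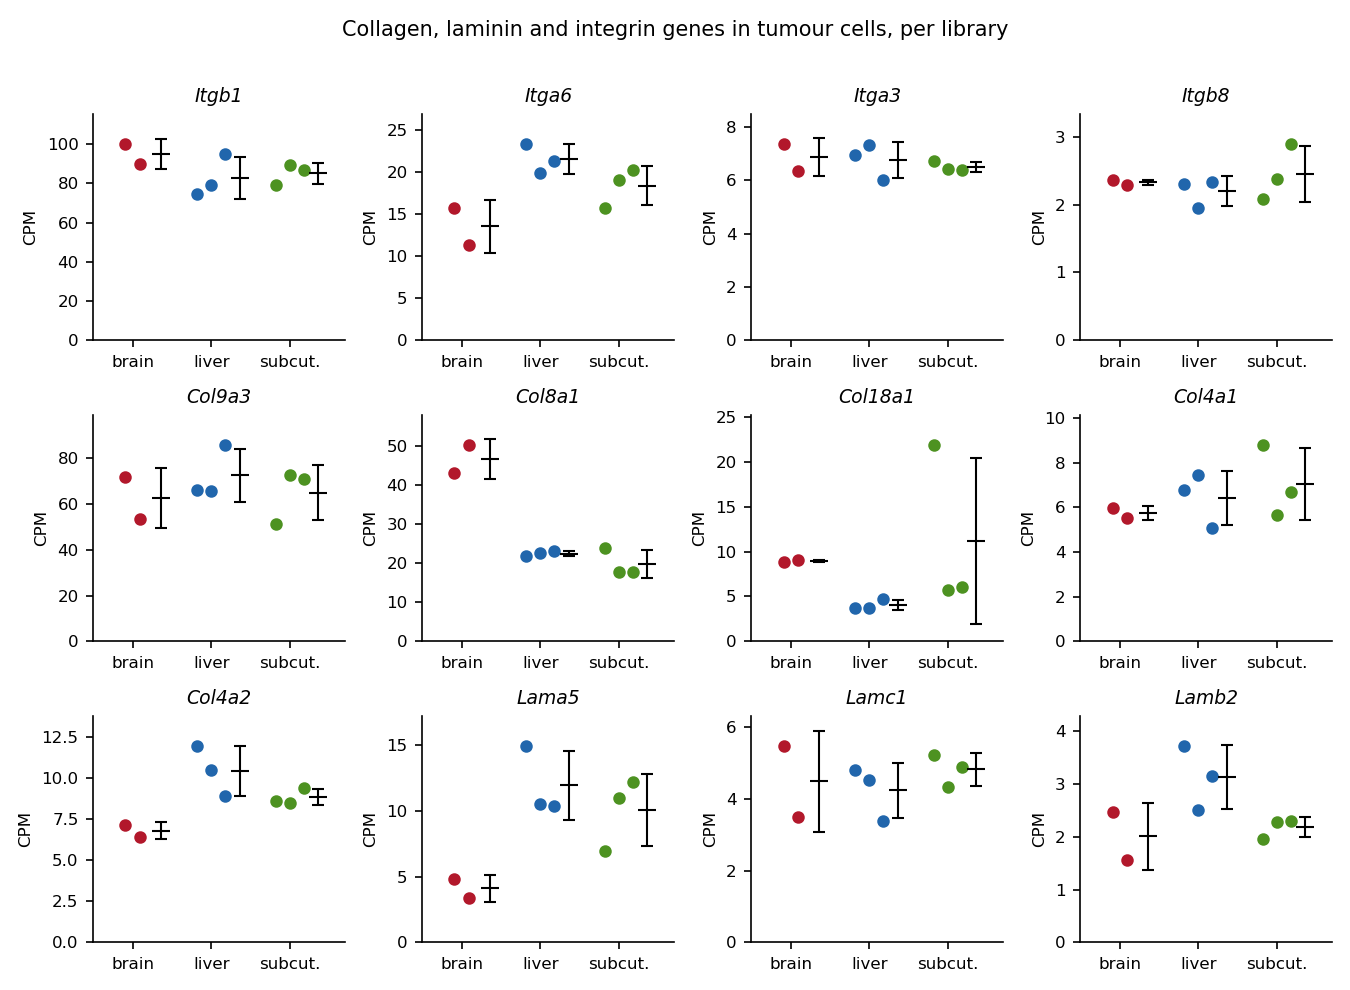
Levels of 12 genes in tumour cells (y axis, CPM, from 0) by site (x axis); each point is a library, and the bar beside it the mean with 1 SD (n = 2 brain, 3 liver, 3 subcutaneous). Col8a1 was higher and Lama5 lower in both brain libraries than in the 6 others, Itgb1 overlapped between brain and liver, and subcutaneous library 1 stood above the rest for Col18a1.

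Itgb5 and Itgam were also called higher in brain tumour cells, at low levels, and myeloid cells carried far more of both. Itgb5, which with Itgav forms a vitronectin receptor, had 1.956 and 0.977 CPM in brain, 0.10, 0.19 and 0.09 CPM in liver and 0.34, 0.23 and 0.25 CPM in subcutaneous tumours. The log2 fold change of Itgb5 was 3.38 ± 0.48 against liver (edgeR, adjusted p = 0.002) and 2.42 ± 0.45 against subcutaneous tumours (adjusted p = 0.008, and 0.083 without brain library 1). Itgam, the alpha subunit of the myeloid complement receptor, had 1.504 and 0.238 CPM in brain and at most 0.10 CPM elsewhere. Without brain library 1 its adjusted p was 0.097 against liver and 0.242 against subcutaneous tumours. Leaving out liver library 2 (0.050) or subcutaneous library 2 (0.061) or 3 (0.076) also ended its second call.

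Markers of phagocytes moved with these genes in tumour-named cells. The 12 macrophage markers summed to 299 and 107 CPM in the brain libraries, 19.4 to 23.8 CPM in liver and 25.6 to 44.4 CPM in subcutaneous tumours, and 0 of the 12 were at 0 in either brain library. Over the 28 markers of microglia, macrophages and monocytes or dendritic cells used for this comparison, tumour-named cells of brain library 1 held 0.50% of the level in the phagocytes of the same library, and Itgam stood at 0.74% and Itgb5 at 0.36%. In brain library 2 the markers stood at 0.10%, Itgam at 0.19% and Itgb5 at 0.22%. Without tumour-named cells carrying 2 or more host marker UMIs, Itgb5 stayed called in both brain comparisons, and Itgam no longer passed the filter on low counts. In that fit 11 of 40 genes of the set were called in brain against liver and 5 in brain against subcutaneous tumours, where 20.9% and 15.2% of all tested genes were. The part of free phagocyte RNA in the level of Itgb5 was not tested, and its levels by tumour cluster are given below.

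Tumour cells fell into 16 clusters built without the 84 genes, and Col8a1, Col9a3, Col18a1 and Lama5 had different levels from cluster to cluster. Clusters 5 (2402 cells) and 17 (823 cells) had 71.7% and 74.7% of their cells from brain and held 33.0% and 40.0% of the tumour cells of the brain libraries, 10.5% of those of subcutaneous library 1, 2.14% and 2.09% of the other subcutaneous libraries and 1.23% to 2.40% of the liver libraries. Col8a1 was at 79.8 and 47.8 CPM in clusters 5 and 17, and at 4.0 to 52.4 CPM in the other 14. Col9a3 was at 12.2 CPM in cluster 5, against 13.7 to 218.1 CPM elsewhere. Lama5 was at 1.6 and 2.4 CPM, against 2.4 to 18.8 CPM elsewhere. Col25a1 reached 2.0 and 3.9 CPM in these 2 clusters and at most 0.1 CPM in any other. Itgb5 was at 2.84 and 1.72 CPM in clusters 5 and 17 and at most 1.20 CPM in any other.

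Col18a1 was high in other clusters. It was at 34.2, 26.6 and 24.2 CPM in clusters 1, 12 and 7, and at 2.0 to 8.7 CPM in the other 13. The leading genes of cluster 1 included Tfap2a and Wfdc2, and those of cluster 7 included Wfdc2 and Cldn7. Cluster 1 drew 55.9% of its cells from subcutaneous tumours and 6.3% from liver. Itgb1 ranged from 66.0 to 113.7 CPM over 15 clusters and was at 231.2 CPM in cluster 21 (93 cells, median 2292 UMIs per cell). These are descriptions, since cells of a cluster are not replicates.

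The site comparisons were also made within and outside the clusters that came mostly from brain, and the difference between these fits was not tested. Outside them, 5 genes were called in brain against liver and 2 in brain against subcutaneous tumours, where 7.21% and 4.68% of all genes were called. Col8a1 outside them had 32.8 and 41.4 CPM in brain, 19.8, 21.5 and 22.1 CPM in liver and 21.8, 15.7 and 16.4 CPM in subcutaneous tumours, and stayed called (log2 fold changes 0.74 ± 0.16 and 1.08 ± 0.16, adjusted p = 0.03 and 0.01 by edgeR). Inside them it had 62.9 and 64.5 CPM in brain, 121.8, 93.6 and 122.8 CPM in liver and 45.1, 125.6 and 102.7 CPM in subcutaneous tumours, so the few cells of these clusters from liver carried more Col8a1 than those from brain, without passing the test (log2 fold change -0.85 ± 0.36, adjusted p = 0.22).

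Lama5 outside them had 6.51 and 4.72 CPM in brain, 15.1, 10.6 and 10.5 CPM in liver and 7.46, 11.2 and 12.4 CPM in subcutaneous tumours, with a fall of 1.20 ± 0.27 against liver (adjusted p = 0.03 by edgeR) and a log2 fold change of -0.88 ± 0.27 against subcutaneous tumours (adjusted p = 0.09). Col4a1 and Col4a2 inside the clusters were lower in brain than in liver, with log2 fold changes of -1.80 ± 0.40 and -2.06 ± 0.46 (edgeR, adjusted p = 0.01 for each). Col4a1 inside had 4.46 and 3.92 CPM in brain and 13.9, 12.5 and 16.9 CPM in liver, without overlap. Outside the clusters the log2 fold changes of this pair were -0.01 and -0.35 (adjusted p = 0.98 and 0.22). Col25a1, Col8a2, Col22a1 and Col11a1 had at most 0.13 CPM outside the clusters in any library. Inside them Col25a1 had 3.27 and 3.37 CPM in brain, no UMI in liver and 1.27, 1.69 and 0 CPM in subcutaneous tumours. Col8a2 inside had 2.53 and 1.58 CPM in brain, 2.14, 1.56 and 4.82 CPM in liver and 2.80, 9.27 and 7.80 CPM in subcutaneous tumours. Over all tumour cells Col8a2 had only 3 UMIs in each liver library, so no order of sites is read from these values. Col22a1 inside had 1.34 and 0.69 CPM in brain and 1.02, 3.37 and 5.20 CPM in subcutaneous tumours, and Col11a1 had 0.89 and 0.83 CPM in brain and 2.04, 2.53 and 2.60 CPM in subcutaneous tumours. None of these 4 genes passed the filter on low counts inside the clusters. Over all tumour cells of the subcutaneous libraries Col11a1 had 8, 3 and 2 UMIs and Col22a1 9, 7 and 4. Itgb5 inside had 2.53 and 1.79 CPM in brain, 2.14, 7.80 and 2.41 CPM in liver and 2.29, 5.90 and 5.20 CPM in subcutaneous tumours. It did not pass the filter there either. Outside, Itgb5 had 1.67 and 0.47 CPM in brain and at most 0.18 CPM elsewhere, and stayed called (edgeR, adjusted p = 0.01 and 0.03). Over all tumour cells Itgb5 had 5, 9 and 4 UMIs in the liver libraries. The liver libraries held 98, 63 and 57 cells of these clusters and the subcutaneous libraries 434, 135 and 100. Values inside, also those of Col4a1 and Col4a2, therefore rest on few cells outside brain. The clusters were singled out after the data were seen, because most of their cells came from brain.

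**Figure D3:**
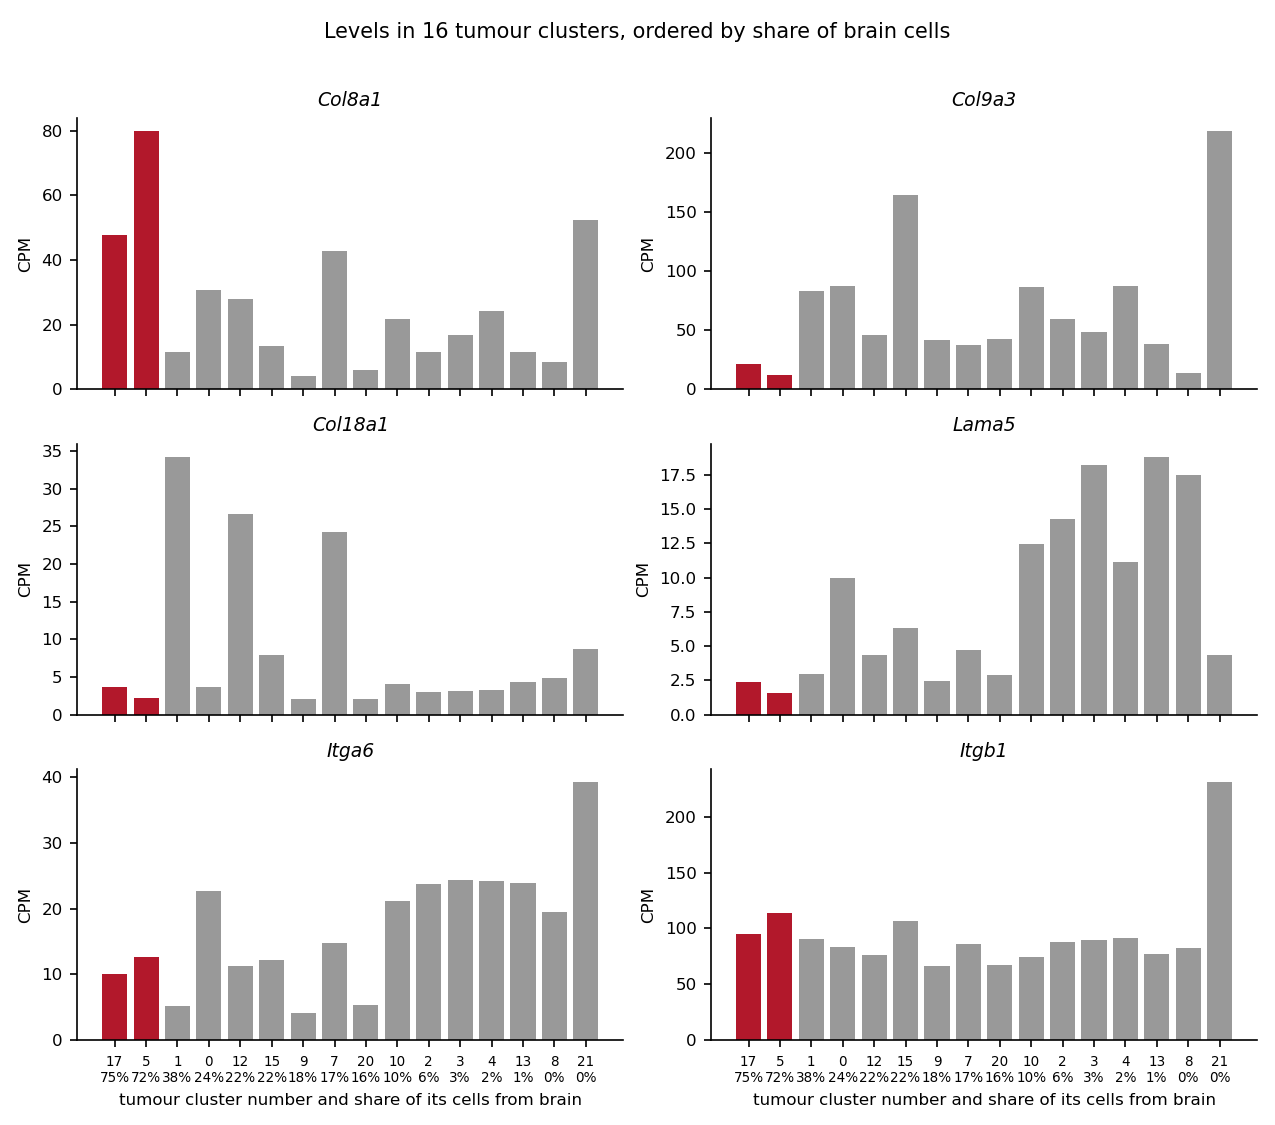
Levels of 6 genes (y axis, CPM) in the 16 tumour clusters (x axis, cluster number with the share of its cells from brain, highest share at the left); red bars are the clusters with over 50% of cells from brain. Col8a1 peaks in cluster 5, Lama5 is low in both red clusters, and Col18a1 is high in clusters 1, 12 and 7.

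Host cells carried many of the genes that were low in tumour cells. Levels in host classes are over all libraries pooled, with exact Poisson intervals for counting error only, and the classes come from clusters, so no test between classes is given. Microglia, the resident phagocytes of brain, carried Itgb5 at 1076 CPM (95% interval 1030 to 1123), Itgam at 347 CPM and Itgb2 at 316 CPM, followed by Itgb1 (144), Itgax (121), Col27a1 (48.3), Itga6 (31.2) and Itgb1bp1 (31.2 CPM). An Itgb5 UMI was seen in 97.3% of microglia. Between the brain libraries, Itgb5 in microglia was 1058 and 1181 CPM and Itgam 355 and 294 CPM. Itgax, the alpha subunit associated with dendritic cells and with activated microglia, was 138 CPM in brain library 1 (291 cells) and 21.8 CPM in brain library 2 (74 cells), with intervals of 120 to 157 and 8.0 to 47.5 CPM that do not overlap.

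Macrophages carried Itga4, Itgb7 and Itgal, which were at 1.56, 1.04 and 7.79 CPM in microglia, beside the integrins that microglia carried. Of the 343 macrophages, 212 were 1 cluster whose leading genes included Cd74, H2-Aa and Plac8. The same 3 genes were among those of the largest cluster named monocyte or dendritic (187 cells). Levels in the separate clusters of the macrophage class are not given, so these integrins are not read as particular to macrophages. Itgb7 was at 30.9 CPM in macrophages. Itgb5 was at 229 CPM, Itgb2 at 215, Itgam and Itgb1 at 124 each, Itgax at 63.5, Itga4 at 57.9, Itgb1bp1 at 47.8 and Itgal at 39.3 CPM. By library, Itgb5 in macrophages was 252 and 297 CPM in brain and 132 CPM in subcutaneous library 1, and Itgb2 was 230, 198 and 198 CPM. With 2 brain libraries and 1 subcutaneous library holding 50 or more macrophages, no test between sites was made. Monocytes or dendritic cells stood apart by Itgb7 at 194 CPM and Itga4 at 155 CPM, which together form a homing receptor, and by Itgae at 51.0 CPM. Itgb2 was at 161, Itgax at 144, Itgb1 at 139, Itgam at 55.6 and Itgb1bp1 at 51.6 CPM. Itgb5 was at 7.4 CPM in these cells.

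Endothelial cells, 79 of 91 of them from brain, carried basement membrane genes, which fibroblasts carried as well. In endothelial cells Col4a1 was at 607 CPM (interval 533 to 688), Col4a2 at 480, Itgb1 at 291, Col18a1 at 124, Itga1 at 117, Itga6 at 84.5, Lamc1 at 79.6 and Col15a1 at 69.6 CPM. Lama4, a vascular laminin chain, was at 64.6 CPM and Lama5 at 22.4 CPM. Fibroblasts of the cluster from subcutaneous library 1 carried the fibrillar collagens: Col3a1 at 8971 CPM (interval 8659 to 9291), Col1a2 at 3572 and Col1a1 at 3325 CPM. They were followed by Col14a1 (497), Col5a2 (442), Col6a1 (422), Lamc1 (336) and Col5a1 (256 CPM), and Lamb2 was at 233 and Lama4 at 123 CPM. A Col3a1 UMI was seen in 94.9% of these cells, against 0.4% of tumour-named cells.

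Tumour RNA was present in the host classes. The eGFP level in microglia, macrophages and monocytes or dendritic cells was 2.6% to 5.0% of that in tumour cells, and in endothelial cells and the fibroblast cluster it was 14.9% and 23.4%. An eGFP UMI was seen in 10.3% of the cells of the fibroblast cluster and in 18.7% to 22.4% of the cells of the other 4 classes, and free RNA and droplets with a tumour cell and a host cell cannot be told apart from these values. Col9a3, the collagen with the highest level in tumour cells, stood in microglia at 6.9% and in endothelial cells at 11.0% of that level. In the 32 astrocytes and 29 oligodendrocytes it stood at 185% and 114%, from 11 and 15 UMIs. The eGFP level of these 2 classes was 4.2% and 24.2% of that in tumour cells, so Col9a3 is not read as a measure of tumour RNA. The part of tumour RNA in low host values of genes that tumour cells carry was not tested. Itgb1 in microglia, macrophages and monocytes or dendritic cells was above its level of 85.7 CPM in tumour cells.

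**Figure D4:**
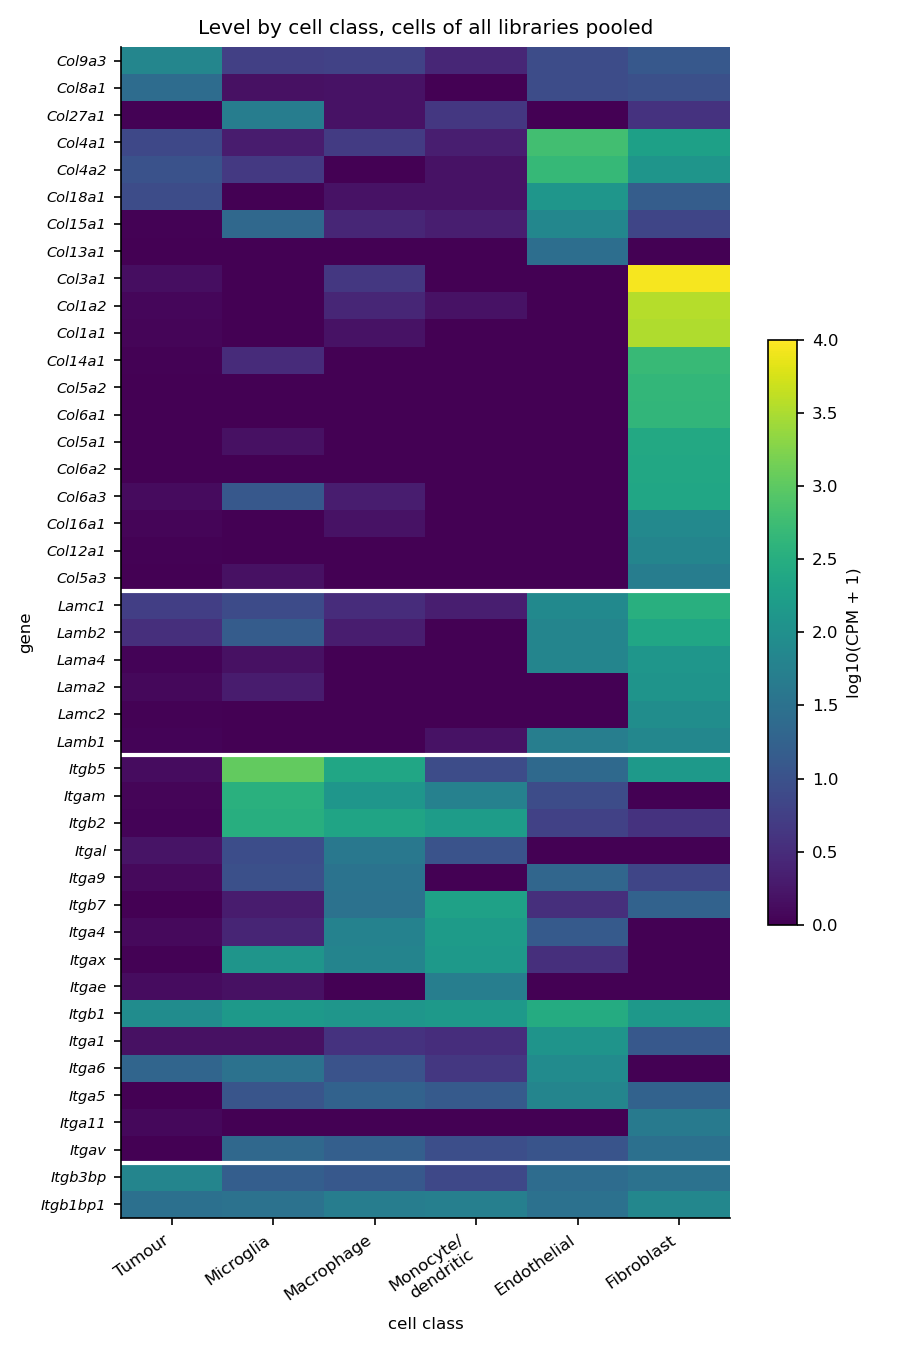
Levels (colour, log10 of CPM + 1) of the 43 genes that reached 25 CPM in at least 1 of 6 cell classes (x axis), with cells of all libraries pooled; rows are genes grouped as collagens, laminins, integrins and integrin-binding proteins from top to bottom, and Fibroblast is the cluster from subcutaneous library 1. Fibrillar collagens are bright in fibroblasts, Col4a1 and Col4a2 in endothelial cells, Itgb5 in microglia, and Col9a3 and Col8a1 in tumour cells.

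The UMIs of each gene were also counted by the kind of cell that held them, over all cells of a site. In the brain libraries tumour cells held 52.7% of the 622 Col4a1 UMIs, pericytes or smooth muscle cells 23.5% and endothelial cells 19.4%, whereas in liver libraries tumour cells held 92.9% of 985. The brain value joins libraries that differed: tumour cells held 30.3% of 393 Col4a1 UMIs in brain library 1, with 37.2% in pericytes or smooth muscle cells and 27.2% in endothelial cells. In brain library 2 tumour cells held 91.3% of 229 and endothelial cells 6.11%, and that library had 0 cells named pericyte or smooth muscle. Brain library 1 held 8 such cells and 61 of the 79 endothelial cells from brain. Of the Col3a1 UMIs, tumour cells held 3.1% of 163 in brain, 8.8% of 68 in liver and 3.8% of 3574 in subcutaneous tumours. Fibroblasts held 87.4% of those in subcutaneous tumours. In liver, where no cell was named fibroblast, 1 pericyte or smooth muscle cell held 75% of the Col3a1 UMIs. Mononuclear phagocytes, counted here with Kupffer cells and with an unnamed cluster of 332 cells led by C1qa, C1qb and Tyrobp, held 90.9% of 3119 Itgb5 UMIs and 92.3% of 1091 Itgam UMIs in the brain libraries. Tumour cells held 82.7% of 6522 Itgb1 UMIs there (69.9% in brain library 1 and 92.7% in brain library 2) and 96.4% of 2862 Col8a1 UMIs.

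These shares depend on the number of cells of each kind that were recovered and on the level and depth per cell, which were not separated. Recovered were 1108 phagocytes in brain libraries, 77 in liver and 127 in subcutaneous libraries, and 79, 5 and 7 endothelial cells. The yield of dissociation and sorting and the makeup of the tissue cannot be told apart here. Col3a1, Col1a2 and Col1a1 in tumour-named cells were at 3.19, 1.14 and 0.94 CPM in subcutaneous library 1, which held the fibroblasts, and at most 0.15, 0.10 and 0.05 CPM in any other library. Those values were 0.04%, 0.03% and 0.03% of the levels in the fibroblasts of the same library, and the fibroblast markers used for this comparison, 9 genes, stood at 0.05%.

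**Figure D5:**
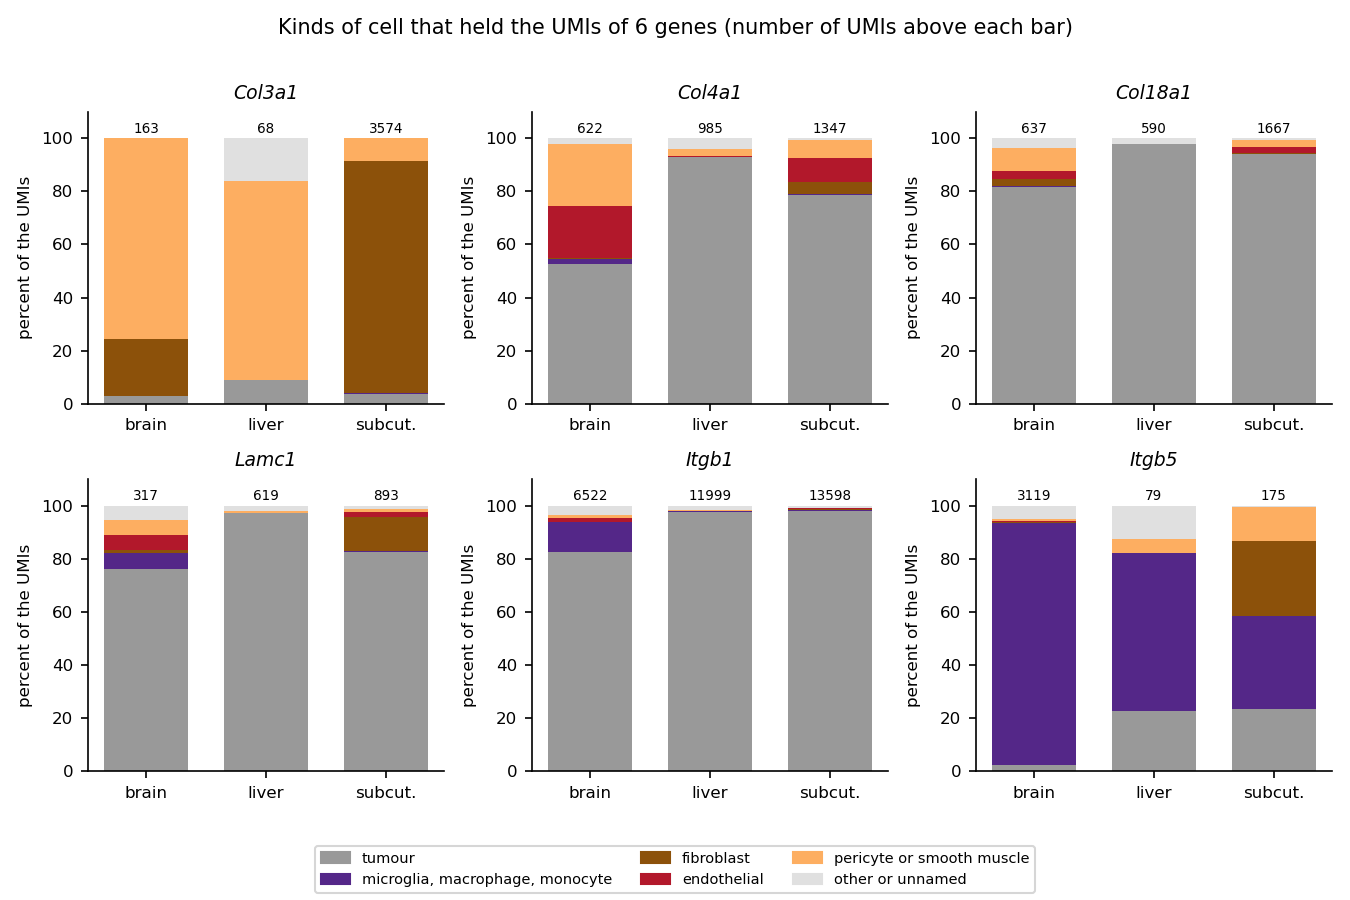
Share of the UMIs of 6 genes (y axis, percent) held by each kind of cell (colours) at each site (x axis), with libraries of a site pooled and the number of UMIs above each bar; the colour for microglia, macrophages and monocytes also holds Kupffer cells and the unnamed cluster of 332 cells. Most Col3a1 is held by fibroblasts in subcutaneous tumours, by 8 pericytes or smooth muscle cells in brain and by 1 such cell in liver. Itgb5 in brain is held by phagocytes, and tumour cells hold most Itgb1 at each site. Col4a1 in the pooled brain libraries is held by tumour, pericyte and endothelial cells, with the pericytes all from brain library 1.

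Other genes of the pathway in tumour cells were counted from lists. Of the 31 collagen biosynthesis genes, 20 were tested, and 8 were called higher and 3 lower in brain against liver. In brain against subcutaneous tumours 7 were higher and 6 lower, and in liver against subcutaneous tumours 0 were higher and 5 lower, which is 55%, 65% and 25% of the list beside 22%, 15.9% and 3.61% of all tested genes. The median log2 fold change of the list in liver against subcutaneous tumours was -0.25, beside -0.01 over all genes. P4ha2, an alpha subunit of the enzyme that hydroxylates proline in collagen, had 2.56 and 2.69 CPM in brain, 1.80, 1.63 and 1.95 CPM in liver and 19.3, 22.6 and 20.4 CPM in subcutaneous tumours. It was lower than in subcutaneous tumours by a log2 fold change of -2.96 ± 0.15 in brain and -3.43 ± 0.13 in liver (edgeR, adjusted p = 6.04e-05 and 3.99e-06).

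P4ha1, the other main alpha subunit, had 11.7 and 14.7 CPM in brain, 20.1, 20.7 and 18.9 CPM in liver and 48.8, 71.6 and 60.4 CPM in subcutaneous tumours, and its beta subunit P4hb and the lysyl hydroxylases Plod1 and Plod2 were also called higher in subcutaneous tumours than in brain. P4hb and Plod2 were so against liver too. P4hb, Plod1 and Plod2 are named after their values were seen. In the other direction P3h1, a prolyl hydroxylase that acts on a single kind of site in collagen, had 18.0 and 20.2 CPM in brain against 2.697 to 3.351 CPM in liver and 9.15, 5.35 and 4.31 CPM in subcutaneous tumours. Loxl3, an enzyme of collagen cross-linking, had 0.45 and 0.55 CPM in brain and at most 0.07 CPM elsewhere.

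Of the 18 basement membrane partners, 16 were tested, with 3 higher and 4 lower in brain against liver, 2 and 3 in brain against subcutaneous tumours, and 1 and 0 in liver against subcutaneous tumours (43.8%, 31.2% and 6.25% of the list). Sparc, a collagen-binding protein that is also a marker of microglia in the lists used here, had 13.5 and 11.4 CPM in brain, 0.55 to 0.74 CPM in liver and 3.73, 0.35 and 0.48 CPM in subcutaneous tumours. Frem1 and Smoc1 were higher in brain than in liver, and Frem2, a basement membrane protein of epithelia, was lower in brain (4.01 and 4.33 CPM) than in liver (13.1, 15.5 and 8.44 CPM).

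Of the 13 other receptors for collagen and laminin, 10 were tested, with 4 higher and 2 lower in brain against liver, 3 and 2 against subcutaneous tumours, and 0 in either direction between liver and subcutaneous tumours (60% and 50% of the list in the brain comparisons). Sdc2, a heparan sulphate co-receptor, had 6.87 and 8.98 CPM in brain, 0.18 to 0.38 CPM in liver and 2.37, 0.45 and 0.35 CPM in subcutaneous tumours. Sdc4 and Cd44 were called higher and Mrc2 lower in brain against liver. Bcam, the Lutheran receptor that binds the product of Lama5, is named after its values were seen: 35.1 and 37.4 CPM in brain, 74.4, 74.0 and 79.1 CPM in liver and 53.1, 65.9 and 68.6 CPM in subcutaneous tumours. Its brain libraries lay below the others, and it fell by 1.16 ± 0.13 on the log2 scale against liver (edgeR, adjusted p = 0.0006) and by 0.77 ± 0.13 against subcutaneous tumours (adjusted p = 0.005).

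Of 19 other integrin ligands 11 were tested, with 5 higher and 1 lower in brain against liver, 4 and 1 against subcutaneous tumours, and 1 higher in liver against subcutaneous tumours (54.5%, 45.5% and 9.09% of the list). Among those called, Tgfbi, Spp1, Vcam1 and Icam1 had the 4 largest fold changes and were low. Spp1 had 3.41 CPM in brain library 1 and 0.16 CPM in brain library 2, and Tgfbi 1.405 and 0.343 CPM. Spp1 is also a leading gene of a microglia cluster, and brain library 1 is the library with 299 CPM of macrophage markers in its tumour-named cells. The fits of the pathway lists were not repeated under the alternatives, and the part of phagocyte RNA in these calls was not tested. Of 26 integrin adaptors all were tested, with 3 higher and 2 lower in brain against liver, 0 and 2 against subcutaneous tumours, and 0 between liver and subcutaneous tumours. These are 19.2% and 7.69% of the list in the brain comparisons, below the 22% and 15.9% of all tested genes. The adaptor list also holds Itgb1bp1, which belongs to the 84 genes and passed in no comparison. Parvb, an actin-binding partner of integrin-linked kinase, had 6.77 and 6.29 CPM in brain, 21.7, 20.996 and 24.6 CPM in liver and 9.63, 26.9 and 25.9 CPM in subcutaneous tumours. Vcl, which couples integrins to actin, was called lower in brain against subcutaneous tumours, Lims1 higher in brain against liver, and Tns1, at 0.55 and 0.29 CPM in brain, higher against liver.

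Of 14 matrix proteases and inhibitors, 9 were tested, with 3 higher in brain against liver, 2 against subcutaneous tumours, and 0 between liver and subcutaneous tumours (33.3% and 22.2% of the list in the brain comparisons). Mmp14, the membrane-bound collagenase, had 2.96 and 4.36 CPM in brain, 1.06, 1.08 and 0.70 CPM in liver and 1.28, 0.93 and 0.60 CPM in subcutaneous tumours. Timp3, an inhibitor held in the matrix, had 1.154 and 0.740 CPM in brain and 0.04 to 0.24 CPM elsewhere. Mmp2 was called against liver alone.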

How the data were processed

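Each of the 8 libraries was a 10x Genomics 3' library of cells sorted from an allograft, per the labels' protocols. The authors deposited UMI counts per gene and cell, and per the file headers they came from Cell Ranger 3.0.0. STAR and mm10 are named in the submitters' processing notes. Filters asked for 500 or more genes and no more than 10% mitochondrial UMIs per cell, and the remaining cells were clustered without the member genes (scanpy 1.11.5, Leiden resolution 1 with igraph 0.11.9, 2000 variable genes, 30 components, 15 neighbours). Cells of clusters not named tumour, and cells without an eGFP UMI, were clustered again for the host classes; those that then joined tumour cells stayed unnamed. A name needed at least 3 markers, each in at least 20% of the cells, and no other class ahead among the 10 leading genes. Leading genes were taken against cells of the other eGFP state, and phagocyte lists counted as 1 lineage, both chosen after the clusters were seen. Cell type names are therefore rebuilt ones. No doublet caller was run and no doublets were removed. Mixed clusters stayed unnamed, and cells with 2 or more of the UMIs of 53 host markers were left out in an alternative.

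For each library the counts of its tumour-named cells were added up and tested in R 4.3.3 with edgeR 4.0.16 (TMM, filterByExpr, robust quasi-likelihood F test, a mean per site over all 8 libraries, leaving 5 residual degrees of freedom; the biological coefficient of variation was 15.7%), with Benjamini-Hochberg adjustment over 13672 genes. Standard errors were derived from each log2 fold change and the square root of its F value. Positions are from GENCODE M21 (GRCm38). Genes given per library were those called with a mean of at least 5 CPM at a site, the 4 with the highest mean level of each family, the 8 with the highest level in each host class of at least 50 cells, and at most 4 called genes per pathway list by fold change; others are said to be chosen after their values were seen. The members and lists were chosen with earlier results of these data known. The steps were checked on simulated data. A gene that the symbol pattern also takes is not reported here.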

Additional observations from a re-analysis of the deposited data

How the results depend on the processing

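Of 19 pairs of a called gene and a comparison, 348 alternatives gave a value: 293 kept the direction and the call, 52 kept the direction without the call and 3 reversed, and 32 could not be fitted because the gene did not pass the filter on low counts. The reversed ones were all in the fit of only the clusters mostly of brain cells, where the log2 fold change was -0.85 for Col8a1 and 0.25 for Itga6 in brain against liver and -0.38 for Col8a1 in brain against subcutaneous; the cause was not tested. With each library left out in turn, 7 to 17 genes were called in brain against liver, 1 to 12 in brain against subcutaneous and 0 to 2 in liver against subcutaneous. In brain against liver the count was 7 with cells thinned to 3000 UMIs (22 genes tested), 5 without the clusters mostly of brain cells and 2 in them alone (8 genes tested). In brain against subcutaneous it was 3 with only the 2 sites fitted, 4 after thinning, 2 without those clusters and 0 in them alone, and in liver against subcutaneous it was 1 in them alone. With a replicate block the counts were 12, 5 and 0, and the block ended the calls of Col11a1 (brain against liver) and of Lama5 and Col8a2 (brain against subcutaneous). Correlations of deviations from the site means ran from -0.08 to 0.14 for same-numbered libraries and from -0.19 to 0.18 for other pairs. With 2 or 3 libraries per site these deviations are tied to each other, so they cannot tell whether the replicate numbers pair the libraries. DESeq2 called 13, 7 and 0. The share of all tested genes called also moved between fits, as given above for some of them. Counts here stand without that share, so they describe no trait particular to the set. With 2 brain libraries and few UMIs for genes below 1 CPM, absence of a call says little about them, and the host classes rest on too few cells for a test between sites.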

Other observations

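Host classes with fewer than 50 cells are given as values over all libraries, with exact Poisson 95% intervals for counting error only. The 19 pericytes or smooth muscle cells carried Col3a1 at 2639 CPM (2409 to 2885), Col1a1 at 2573 CPM, Col1a2 at 1956 CPM and Col4a1 at 1442 CPM (1274 to 1627). Col8a1 in these 19 cells was at 202 CPM, from 37 UMIs, against 25.2 CPM in tumour cells. The 29 oligodendrocytes carried Itgb4, the beta subunit of the epithelial laminin receptor, at 190 CPM (134 to 262), from 37 UMIs. The 37 Kupffer cells, the resident macrophages of liver, carried Itgb5 at 433 CPM (300 to 605) and Itgb1 at 229 CPM (136 to 362). In the 38 neutrophils Itgb2 was at 69 CPM and Itgal at 65 CPM, but their eGFP level was 67.8% of that in tumour cells. The 15 fibroblasts from brain had Col3a1 at 1023 CPM (712 to 1422) and Col18a1 at 526 CPM (312 to 831).

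Among unnamed cells, a cluster of 332 cells, 288 of them from brain library 1, carried Itgb5 at 482 CPM (437 to 530), Itgb2 at 236 CPM and Itgam at 142 CPM, with a median of 2111.5 UMIs per cell. Another of 193 cells, with an eGFP level at 81.8% of that in tumour cells, had Itgb5 at 58.7 CPM (49.5 to 69.0).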
